A study of Homo sapiens with 3 samples.

Results

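The ETS1 peaks described here lie at 10 neighbouring genes of the chromosome 11q13 amplicon, CCND1, LTO1, FGF19, FGF4, FGF3, ANO1, FADD, PPFIA1, CTTN and SHANK2, out of 20162 protein-coding genes in GENCODE release 44 placed on hg19. The genes were taken from a fixed list of neighbours and not by a cut-off on any measured value, but with earlier results of these data known. Peaks were included when their midpoint fell in the interval from 100 kb before CCND1 to 100 kb after SHANK2, chr11:69355924-71063623, which is 1.71 Mb long. This interval held 128 of the 26970 peaks in the consensus list, and 77 of the 128 had their midpoint in the body of at least 1 of the 10 genes.

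ETS1 is a transcription factor of the ETS family, and its binding was mapped by ChIP-Seq in SCC25, an established tongue squamous cell carcinoma line used as a mesenchymal model of head and neck squamous cell carcinoma. The 3 samples were untreated chromatin of this line as far as the labels say, 2 precipitated with the C20 antibody from Santa Cruz and 1 with the 501A antibody from Bethyl. No control genotype, second cell line or second condition entered, and a single line is the only model behind every value. The deposited result is 1 pooled list of positions that carries neither a score nor a summit nor values of single samples, and each count below has counting error only and no replicate check. Positions also hold no expression. Of 5 squamous keratinocyte genes used to look at the cell type, KRT6A alone had a peak midpoint within 500 bp of a transcription start site (TSS), KRT5 had its TSS inside a peak as well, TP63 carried 4 peaks in its body, and KRT14 and DSG3 had none in the body or at the TSS.

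Amplification of 11q13 is a frequent event in squamous cell carcinomas of the head and neck, and the amplified segment is known for carrying CCND1 and CTTN together. CCND1 encodes cyclin D1, which drives the passage from G1 to S phase with CDK4 and CDK6. FGF19, FGF4 and FGF3 encode secreted fibroblast growth factors, ANO1 a calcium-activated chloride channel, FADD the adaptor that links death receptors to caspase-8, PPFIA1 a liprin of focal adhesions, CTTN the actin-binding protein cortactin, SHANK2 a scaffold of synapses and LTO1 a protein of iron-sulphur cluster maturation. Whether SCC25 carries extra copies of the interval was not measured in the files used here. The nearest measure is the input control listed with the H3K27Ac enhancers of SCC25, which is given beside the peak densities below.

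The sequence at start sites is shown first for CCND1 and FADD, whose start sites lay inside peaks, and for FGF3, whose start site did not. Each run is the 200 bases before the canonical TSS, on the strand of the gene, in hg19 coordinates. Capitals mark any match to the ETS core (AGGAAG or AGGAAA), to the GC-rich ETS site CCGGAA or to the AP-1 site (TGAGTCA or TGACTCA). Each was searched on both strands. The ETS core and CCGGAA are different sites and were searched separately.
CCND1, chr11:69455724-69455923, plus strand: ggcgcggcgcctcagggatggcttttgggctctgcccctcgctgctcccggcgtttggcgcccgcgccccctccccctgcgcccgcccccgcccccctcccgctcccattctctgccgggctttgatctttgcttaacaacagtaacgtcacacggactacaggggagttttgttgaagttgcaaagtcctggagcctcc
FADD, chr11:70049202-70049401, plus strand: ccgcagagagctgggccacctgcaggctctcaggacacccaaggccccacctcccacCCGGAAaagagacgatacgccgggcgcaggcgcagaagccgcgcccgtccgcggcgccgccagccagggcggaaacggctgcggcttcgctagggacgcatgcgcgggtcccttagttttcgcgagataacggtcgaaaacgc
FGF3, chr11:69634185-69634384, minus strand: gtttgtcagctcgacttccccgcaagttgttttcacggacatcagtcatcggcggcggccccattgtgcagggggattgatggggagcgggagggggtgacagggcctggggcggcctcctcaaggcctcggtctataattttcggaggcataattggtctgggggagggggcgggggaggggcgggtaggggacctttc

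FADD had 1 CCGGAA in this stretch, while CCND1 and FGF3 had no match of any kind. Among the 20162 protein-coding genes the same 200 bases held the ETS core in 35.3%, CCGGAA in 17.2% and an AP-1 site in 2.48%. The absence of a match says only that these letters are not in these bases.

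Taken as a whole, the interval was dense in peaks. The 128 peaks amounted to 75 per Mb (95% Poisson interval 62.5 to 89.1) against 9.43 per Mb over the 26961 nuclear peaks, a density 7.95 times that of the genome (6.63 to 9.45) and 6.77 times that of the rest of chromosome 11, where there were 11.1 per Mb. The interval thus held 0.475% of the list in 0.0597% of the sequence, and 12.8% of its bases lay in a peak against 1.08% of the nuclear genome. When the genome was tiled into 1633 windows of the same length, a window held a median of 10 peaks and the 95th percentile was 52.0. A single window reached the count of the interval, with 132 peaks, and it overlapped the interval from the CCND1 side. The highest count of a window that did not overlap was 113, on chromosome 19, and that window held 58 protein-coding genes.

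The peaks were unevenly spread within the interval. In bins of 100 kb, the 17 bins of the interval had a median of 7 peaks against 0 for the 28381 bins of the nuclear genome, and 12 of the 17 were above the genome's 95th percentile of 4. The bin from 500 to 600 kb after the CCND1 TSS, from inside ANO1 to just past FADD, held 22 peaks. No bin of the genome tiling held more than 19, but that tiling includes the interval itself, cut at other positions. The 19 is therefore not a maximum over the rest of the genome. At the other end of the scale, the bin from 1200 to 1300 kb, inside SHANK2, held 0. The widest stretch without a peak was 162 kb, chr11:70635249-70797003, also inside SHANK2. Averaged over the flanks, density was lower. It was 53.3 per Mb over 4.90 Mb before the interval, with 261 peaks, and 23.2 per Mb over 4 Mb after it, with 93 peaks. On the CCND1 side, however, the dense stretch ran on past the interval. The bins from -700 to -100 kb of the CCND1 TSS held 7, 12, 8, 5, 10 and 13 peaks. On the SHANK2 side the bins from 1600 to 2000 kb held 0, 4, 0 and 0.

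**Figure D1:**
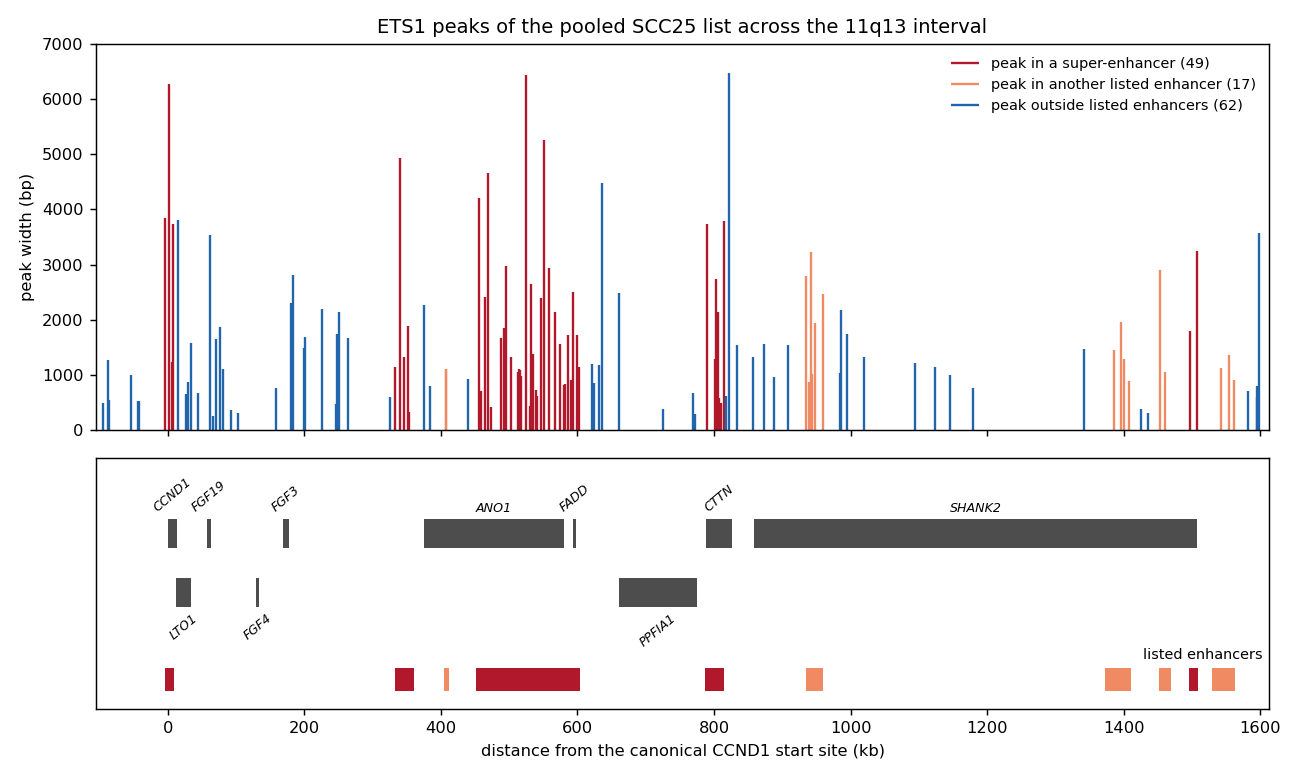
Position of the 128 ETS1 peaks by distance from the canonical CCND1 TSS (kb, horizontal) and their width (bp, vertical), coloured by whether the midpoint lies in a super-enhancer (49), another listed enhancer (17) or neither (62), above the 10 gene bodies and the listed enhancers. The peaks crowd at CCND1, across the 3′ part of ANO1 up to FADD and at CTTN, and leave gaps in SHANK2.

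Peaks of the interval were also wider than those elsewhere. The median width was 1302 bp (95% interval of the median 1114 to 1565, quartiles 828 and 2183) against 969 bp over all nuclear peaks (quartiles 609 and 1462). Of the 128 peaks, 17 (13.3%) were wider than 3 kb, against 2.65% of all. Neighbouring peaks were separated by a median of 4566 bp against 25839 bp genome-wide, and 28 of the 127 gaps (22.0%) were under 1 kb against 7.64%. The 5 widest were an intronic CTTN peak of 6473 bp, an intronic ANO1 peak of 6440 bp, the CCND1 peak of 6277 bp, a further intronic ANO1 peak of 5250 bp and a peak of 4930 bp between FGF3 and ANO1.

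The order of the deposited list is not explained, but wider peaks come first in it. The interval had 11 peaks among the first 1000 of the list, 8.59% of its peaks against 3.71% of all peaks. In 10 equal parts of the list it had 19 of the 128 (14.8%) in the first and 25 (19.5%) in the last, so that both ends were more filled than an even spread over the list would give. Only 52 of 128 (40.6%, 95% Wilson interval 32.5 to 49.3) stood among the first 13485. Compared with all peaks of the same part of the list, the interval's median width was larger in 9 of the 10 parts. In the first it was 1946 bp against 1302 bp, and in the fifth, the exception, it was 926 bp against 984 bp.

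Far from start sites is where most of these peaks lay. Of the 128 peaks, 103 (80.5%, 95% Wilson interval 72.8 to 86.4) had no annotated TSS within 1500 bp of the midpoint, against 48.1% of all nuclear peaks. Only 13 (10.2%, 6.03 to 16.6) lay within 500 bp of a TSS, against 43.3%. By annotation 54 were intronic and 49 intergenic. Beside the 10 genes, 26 other annotated genes lie wholly in the interval, and 4 of them, all long noncoding RNAs, had a peak within 500 bp of a TSS: LINC02753, ENSG00000255191, ENSG00000254605 and ENSG00000289074.

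At the genes themselves, 7 of the 10 had a peak midpoint within 500 bp of an annotated TSS, where the background over all protein-coding genes was 53.1%. With the canonical TSS of each gene alone the count was 4 of 10, and the genes have up to 27 annotated TSSs (PPFIA1). The 53.1% counts any annotated TSS, so it is no background for the 4 of 10, and a matching share is not given. A peak midpoint lay in the body of 8 of 10 (background 53.5%), and the canonical TSS lay inside a peak at 8 of 10 (background 51.6%). With 10 genes the counts of 7, 8 and 8 stand little above their backgrounds. The number of peaks per gene was further from it. The median over the 10 genes was 1.55 peaks per 10 kb of body against 0.0640 over all protein-coding genes, and all bodies pooled gave 0.723 against 0.136.

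CCND1, the cyclin gene, was covered by peaks over 79.8% of its 13.3 kb. A peak of 6277 bp, chr11:69454765-69461041, spanned its canonical TSS, with the midpoint 1979 bp inside the gene and 577 bp from the nearest annotated TSS, which is why CCND1 is not among the 7 genes counted at promoters. Peaks of 1241 bp and 3727 bp followed in the body, and a peak of 3848 bp ended just before the first. LTO1 overlaps the 3′ end of CCND1 on the other strand, so that peaks there belong to neither alone. LTO1 had 4 peaks, of 3807, 658, 878 and 1573 bp, and its canonical TSS lay in the last of these, at position 530 of the list.

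Among the growth factor genes, only FGF19 carried a peak. Its single body peak was 3543 bp wide, covered the TSS and took up 34.9% of the body. FGF4 had no peak in its body, and the nearest midpoint was 24146 bp upstream of its TSS. FGF3 had none in its body either, and its nearest peak, 2297 bp wide, was centred 2827 bp upstream. The segments between genes from LTO1 to ANO1 were less dense than LTO1, FGF19 and ANO1 but denser than FGF4 and FGF3, which were at 0. They had 0.438 peaks per 10 kb between LTO1 and FGF19, 0.896 between FGF19 and FGF4, 0.289 between FGF4 and FGF3 and 0.809 in the 198 kb between FGF3 and ANO1.

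ANO1 was among the most densely bound genes of at least 50 kb, though shorter genes of the interval such as FADD, CTTN and CCND1 were denser. ANO1 held 28 peaks in 204 kb, 1.38 per 10 kb, with 27.3% of the body in peaks. Only GSE1, with 29, had more peaks in its body, and SHANK2 had as many as ANO1. Of the 6794 protein-coding genes of at least 50 kb, LMNA (1.56 per 10 kb), IL6R (1.56) and IFFO2 (1.53) were denser than ANO1, and STN1 (1.3) came next. The canonical ANO1 TSS lies well inside the annotated gene, within a 4669 bp peak at position 536, chr11:69922750-69927418. An intronic ANO1 peak of 5250 bp stood at position 63, the earliest of the interval. ANO1 peaks ranged from 416 to 6440 bp in width, and 24 of the 28 lay in 1 super-enhancer.

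FADD, beside ANO1, had a single peak of 2511 bp centred 120 bp from its TSS and covering 33.6% of the 4.09 kb gene, at position 165 of the list. The 13.8 kb between ANO1 and FADD had the highest density of any segment, 2.91 per 10 kb from 4 peaks. PPFIA1 was the sparse exception among the bound genes. A 2485 bp peak covered its TSS, with the midpoint 166 bp upstream and 2 bp from the TSS of the divergent ENSG00000289074, but the 115 kb body held only 3 peak midpoints, of peaks of 379, 664 and 290 bp. Together with the end of the TSS peak, 2.1% of the body lay in peaks.

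CTTN held 9 peaks in 38.2 kb, 2.36 per 10 kb, and 54.3% of the gene lay in peaks. The first, of 3736 bp at position 393, covered the canonical TSS. The other 8 lay in the body further on, were 481 to 6473 bp wide and all stood beyond position 13485, so that only 1 of 9 CTTN peaks was in the earlier part of the list. SHANK2, the longest of the genes at 650 kb, had 28 peaks or 0.431 per 10 kb, and 6.54% of it lay in peaks. Its canonical TSS lay in a peak of 3237 bp, and a 1789 bp peak at position 664 was centred 125 bp from a further annotated TSS. Of its 28 peaks, 16 were among the first 13485, against 14 of 28 in ANO1.

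**Figure D2:**
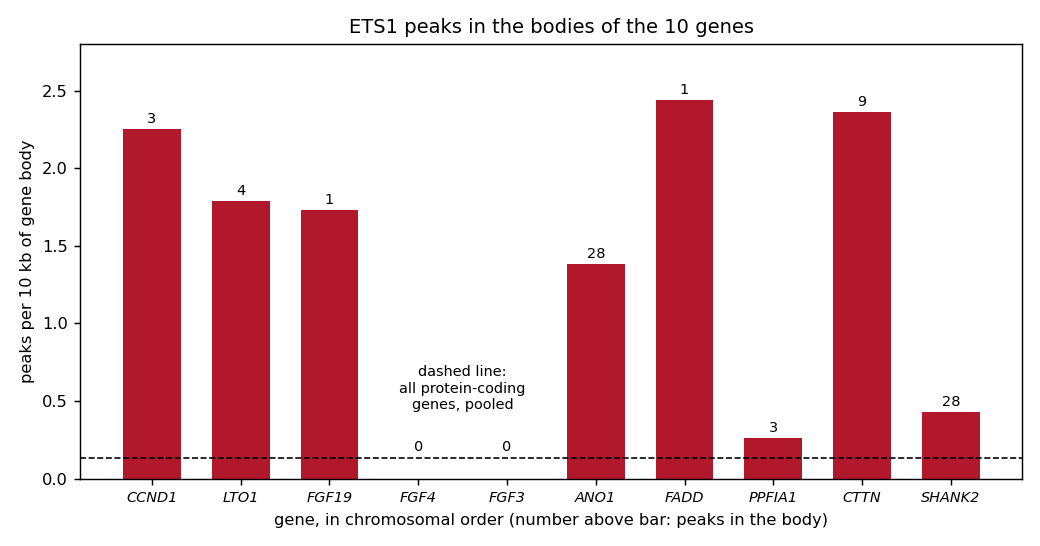
Peaks per 10 kb of gene body (vertical) for the 10 genes in chromosomal order, with the number of peaks in the body above each bar and a dashed line at the pooled value of all protein-coding genes (0.136). FADD, CTTN and CCND1 are above 2 per 10 kb, SHANK2 and PPFIA1 under 0.5, and FGF4 and FGF3 are at 0.

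Taken as sets, the neighbours on both sides were less densely bound than the 10 genes. All bodies pooled gave 0.443 peaks per 10 kb before the interval and 0.361 after it, against 0.723 in the 10 genes. Of 11 genes before the interval, from LRP5 to MYEOV, 7 had a promoter peak and 8 a body peak, with a median of 0.272 per 10 kb. TPCN2 led with 11 peaks, followed by MYEOV with 6 and LRP5 with 5. At 1.26 per 10 kb TPCN2 was close to the 1.38 of ANO1, so not every neighbour was sparse. Of 10 genes after it, 4 had a promoter peak and 4 a body peak, and the median was 0. NUMA1 had 5, NADSYN1 had 3, DHCR7 and IL18BP had 1 each, and the 5 keratin-associated protein genes of this list had none. Relatives of the 10 genes on other chromosomes or other parts of chromosome 11 gave a median of 0.0608 per 10 kb over 28 genes, close to the 0.0640 of all genes, and 13 of the 28 had a promoter peak. The cyclin gene CCND3 and the anoctamin gene ANO6 had 5 each and FGF1, PPFIA3 and SHANK3 had 3 each, while 12 of the 28 had none.

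Super-enhancers (SEs) are long clusters of enhancers with high H3K27Ac, ranked by that signal. Of the 965 SEs listed for SCC25, 5 lie in the interval. The SE of rank 14 covers the CCND1 TSS and most of the gene (13.7 kb, 4 peaks, 97.3% of its bases in peaks), and rank 289 lies between FGF3 and ANO1 (27.5 kb, 5 peaks). Rank 2 runs from before the canonical ANO1 TSS to past FADD (151 kb, 31 peaks), rank 83 covers CTTN from its TSS to short of its 3′ end (27.1 kb, 7 of the 9 CTTN peaks, the widest not among them) and rank 877 lies at the SHANK2 TSS (14.5 kb, 2 peaks). The ANO1 and FADD SE carried the most peaks of any SE, and at 2.05 per 10 kb it was also the densest of the 227 SEs of at least 100 kb, whose median was 0.481 and whose next value was 1.52.

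The 5 SEs held 49 of the 128 peaks (38.3%, 95% Wilson interval 30.3 to 46.9) in 13.7% of the interval, against 17.1% of all nuclear peaks in 2.44% of the genome. Peaks in these SEs had a median width of 1717 bp and the other 79 of 1139 bp. Outside SEs the interval still had 0.536 peaks per 10 kb, 6.69 times the 0.0801 of the nuclear genome outside SEs. Inside SEs it had 2.09 per 10 kb, 3.16 times the 0.662 of all SEs pooled. The excess over the genome was thus larger outside the SEs than within them.

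Input density was high over the same stretch. The input signal per base of the 5 SEs was 4.28 (CCND1), 5.12 (between FGF3 and ANO1), 4.87 (ANO1 and FADD), 5.07 (CTTN) and 3.24 (SHANK2) times the median of the 965 SEs. The first 3 places by input density among all SEs were held by the SEs of rank 289, 83 and 2. Whether this input is the one used to call ETS1 peaks is not given in the sources used here, and the part of input density in the number and width of the peaks was not tested.

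The listed enhancers on both sides place the interval on a raised stretch of input. From 5 Mb before it, 30 listed enhancers had 1.03 to 1.87 times the median (median 1.33) and carried 1.26 peaks per 10 kb. A further 4, the nearest to CCND1, had 2.78 to 3.81 times and 1.37 peaks per 10 kb. The 5 listed enhancers from CCND1 to CTTN had 4.28 to 5.15 times and 2.15 peaks per 10 kb. The 5 after CTTN, all at or near SHANK2, had 1.88 to 3.24 times and 1.29 peaks per 10 kb. In the 3 Mb after the interval, 11 had 2.65 to 4.38 times and 1.13 per 10 kb. Input and peak density were both highest from CCND1 to CTTN. These peak densities are pooled over the enhancers of each set. As medians over enhancers they were 1.67 for the 30, 1.42 for the 4, 2.49 from CCND1 to CTTN, 1.11 after CTTN and 1.18 for the 11. The part of input in these differences was not tested. The enhancers compared also differ in length, with a median of 10.2 kb for the 30 and 53 kb for the 4.

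**Figure D3:**
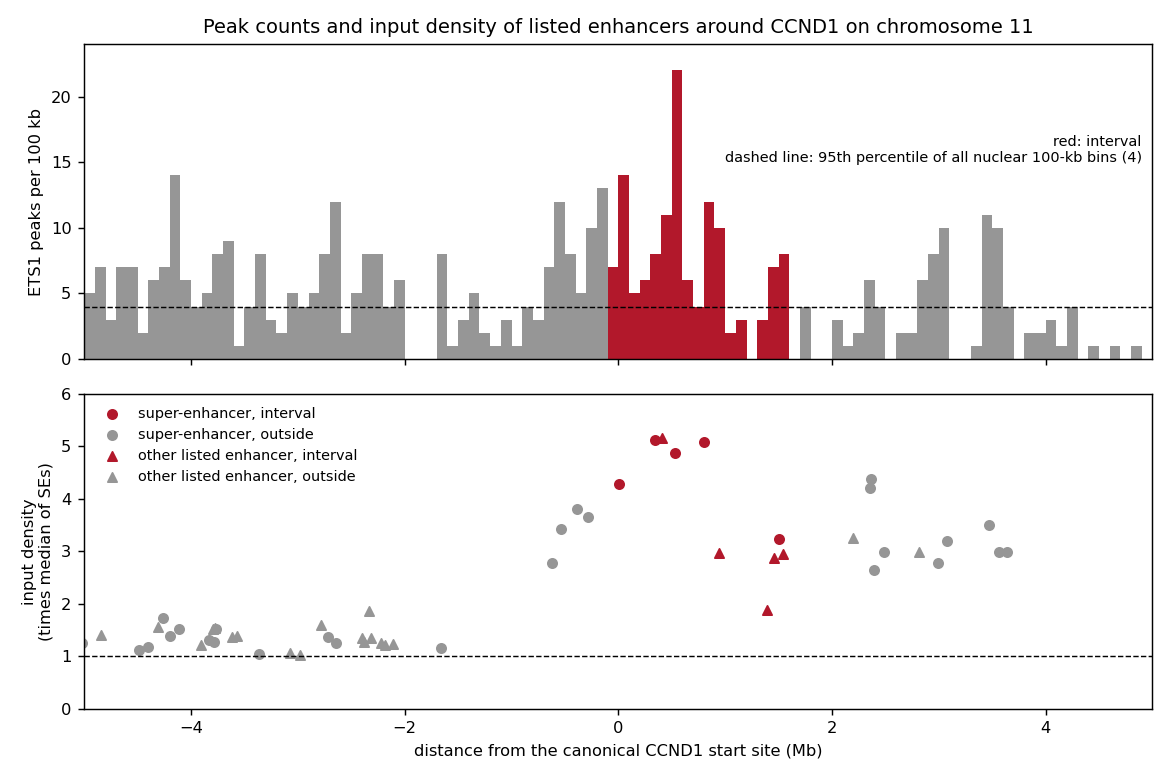
Top, ETS1 peaks per 100 kb by distance from the canonical CCND1 TSS (Mb), with the interval in red and the genome's 95th percentile dashed at 4. Bottom, input density of the listed enhancers as a multiple of the SE median (dashed at 1), with interval enhancers in red, SEs as circles and other enhancers as triangles. Both rise around CCND1, and input stays above 2 for most enhancers up to 3 Mb after the interval while peak counts fall.

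Other SEs with raised input give a further comparison. There were 38 SEs with input over 2 times the median, 20 of them on chromosome 11 and 13 on chromosome 1. The 15 on chromosome 11 outside the interval (2.22 to 4.38 times) carried 1.27 peaks per 10 kb. The 13 on chromosome 1 (2.16 to 3.14 times) carried 0.604, less than the 0.654 of the 927 SEs at or under 2 times. The chromosome 1 SEs had a median length of 50.5 kb and those of the interval 27.0 kb, and the part of length in the densities was not tested. When peaks per 10 kb were divided by the input multiple, the 5 SEs of the interval fell between 0.355 and 0.684. All of these are under the median of all SEs, 0.739, and 4 of the 5 are above the lower quartile of 0.410, with rank 289 below it. The division lowers the SEs of highest input most, and the ratio was not set out for the other SEs of raised input.

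**Figure D4:**
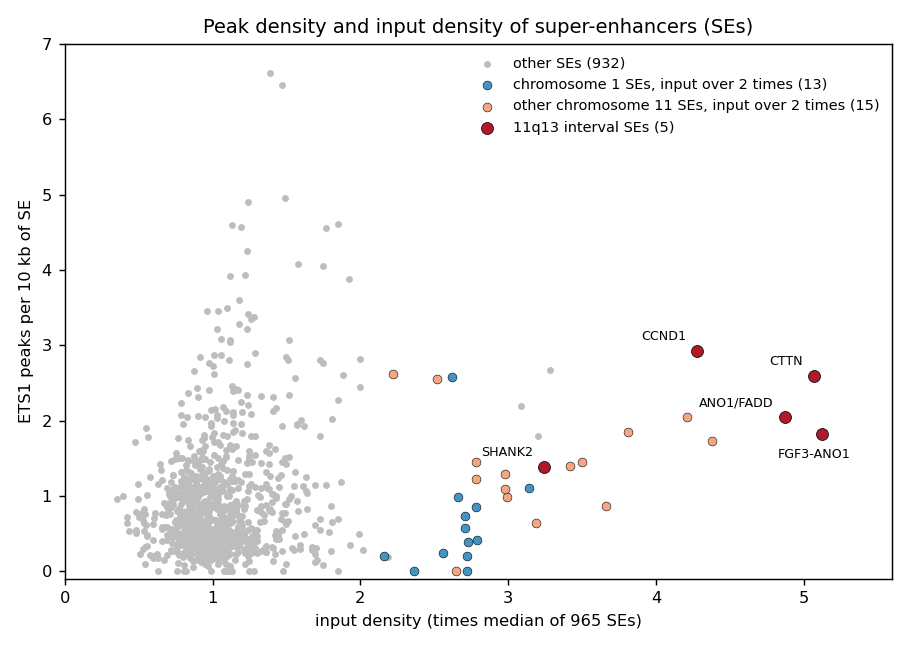
Peaks per 10 kb (vertical) against input density as a multiple of the median (horizontal) for the 965 SEs, with the 5 SEs of the interval, the 15 others on chromosome 11 and the 13 on chromosome 1 with input over 2 times in colour. The 3 SEs with the highest input are in the interval, and its CCND1 SE (4.28) and SHANK2 SE (3.24) overlap the range of other chromosome 11 SEs. SEs with far higher peak density lie at low input. The densest (6.61) is a short SE, chr10:105629065-105632090, and SE length is not shown.

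The letters under the peaks were compared next. In 600 bp around the midpoint, the ETS core was present in 105 of 128 peaks (82.0%, 95% Wilson interval 74.5 to 87.7) against 79.2% of all nuclear peaks. Most interval peaks are far from a TSS, and they were therefore compared with peaks over 1500 bp from one. Among those, the ETS core was in 80.6% of 103 (71.9 to 87.1) against 86.1% of 12981. The GC-rich CCGGAA was in 16.5% (10.6 to 24.9) against 14.3%. Both backgrounds lie within the intervals. This did not hold in every setting. Over whole peaks CCGGAA was in 31.1% (22.9 to 40.5) against 19.1%, and after position 13485 of the list the ETS core was in 75.8% (64.2 to 84.5) of the 600 bp windows against 84.8%. Within SEs the ETS core was in 73.5% (56.9 to 85.4) against 85.2%, a background just inside the limits.

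The AP-1 site is bound by FOS and JUN proteins and often found beside ETS sites. Over all 128 peaks its share was 19.5% (13.6 to 27.2) against 25.2% of all nuclear peaks, a background within those limits. Among peaks far from a TSS the AP-1 site was rarer in the interval in the 600 bp at the midpoint. It was present in 22 of the 103 peaks far from a TSS (21.4%, 14.5 to 30.2), whereas 39.3% of all such peaks had it. By list position the share was 32.4% (19.6 to 48.5) against 42.8% in the first 13485 and 15.2% (8.44 to 25.7) against 36.5% after them. In the first 13485 the background lies within the limits. Within SEs only 3 of 34 had it (8.82%, 3.05 to 23), against 37.1% of the 2901 such peaks in all SEs. Outside SEs it was 27.5% (18.4 to 39.0) against 39.9%.

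Since the interval's peaks were wider, the AP-1 shares were also taken by width. For peaks under 1 kb, 21.1% (11.1 to 36.3) had the AP-1 site against 42.0% of all, and for wider ones 21.5% (13.3 to 33) against 32.5%. Over whole peaks the shares were 39.8% (30.9 to 49.5) against 45%. For the wider peaks and over whole peaks, the background lies within the limits. Per kb of sequence in peaks far from a TSS, there were 0.360 AP-1 sites in the interval against 0.673 in all, and 2.73 ETS cores against 3.27. SEs of raised input elsewhere had AP-1 in 11 of 46 such peaks on chromosome 11 (23.9%, 13.9 to 37.9) and in 14 of 48 on chromosome 1 (29.2%, 18.2 to 43.2). Peaks far from a TSS in the 1 Mb before and 2 Mb after the interval had it in 32 of 87 (36.8%, 27.4 to 47.3), close to the 39.3% of all. In those flanks the ETS core was in 75.9% (65.9 to 83.6), below the 86.1% of all. Median GC of the 600 bp was 55.5% in the interval and 52.8% in all, again far from a TSS. The part of GC and input in the motif shares was not tested.

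**Figure D5:**
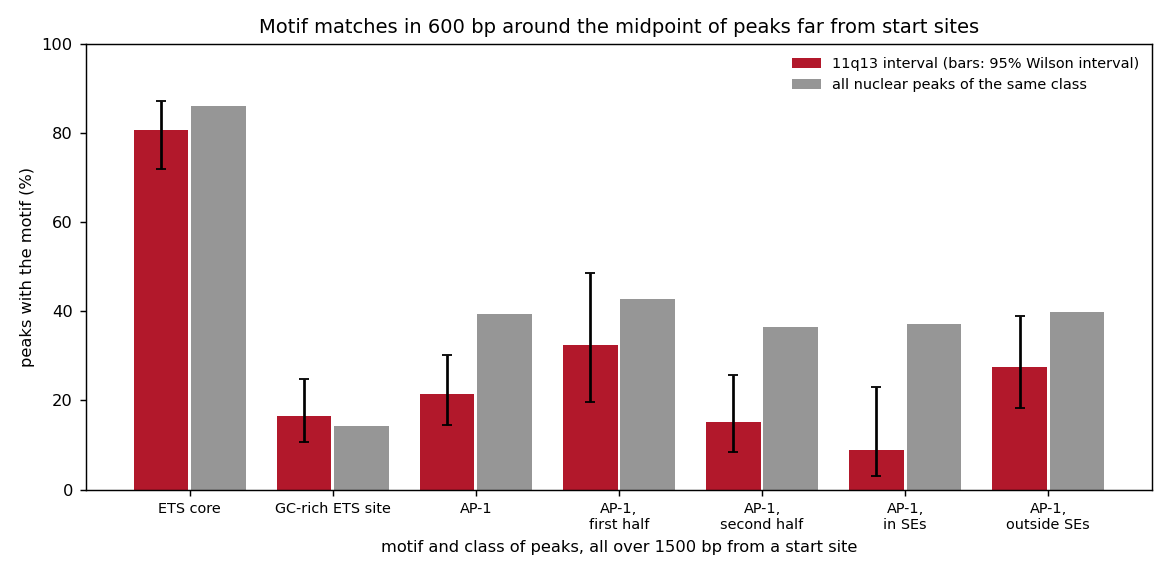
Share of peaks over 1500 bp from a TSS with a motif in the 600 bp around the midpoint (%, vertical), for the interval in red with 95% Wilson intervals and for all nuclear peaks of the same class in grey; the GC-rich ETS site is CCGGAA, and the AP-1 shares are also split by list position (first 13485 or later) and by SE. The ETS shares, shown without these splits, are close. The AP-1 share is lower in the interval in each class, most of all in SEs, but for the first 13485 the background lies within the interval's limits.

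Stretches of 3 of the 5 widest peaks show what these letters look like away from start sites. Each is the 150 bases of the peak with the most matches, plus strand, with matches in capitals. The first is from the ANO1 peak that stood earliest in the list, the second from the SE between FGF3 and ANO1 with the highest input of any SE, and the third from the widest peak of the interval, in CTTN.
ANO1 intron, chr11:70005787-70005936: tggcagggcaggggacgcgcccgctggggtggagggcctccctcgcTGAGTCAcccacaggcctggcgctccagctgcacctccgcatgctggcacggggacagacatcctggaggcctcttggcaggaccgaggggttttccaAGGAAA
FGF3 to ANO1, chr11:69796001-69796150: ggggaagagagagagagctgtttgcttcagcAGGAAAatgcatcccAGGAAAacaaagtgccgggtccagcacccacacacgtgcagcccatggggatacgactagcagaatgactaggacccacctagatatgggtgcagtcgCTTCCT
CTTN intron, chr11:70279526-70279675: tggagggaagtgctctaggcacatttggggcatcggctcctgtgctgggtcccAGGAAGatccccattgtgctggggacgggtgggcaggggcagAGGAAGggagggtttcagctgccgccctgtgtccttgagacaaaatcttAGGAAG

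The ANO1 peak held 7 ETS cores and 1 AP-1 site over its 5250 bp, yet no ETS core in the 600 bp at its midpoint. The peak between FGF3 and ANO1 held 14 ETS cores and 6 AP-1 sites in 4930 bp. The CTTN peak held 17 ETS cores, the most in the interval together with a 4211 bp ANO1 peak, and no AP-1 site. Over the 128 peaks the median was 4 ETS cores per peak, and 9 peaks had none.

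An ETS core within 30 bp of an AP-1 site occurred in the 600 bp at the midpoint of 5 of the 128 peaks, all far from a TSS. That is 4.85% of 103 (2.09 to 10.9) against 10.6% of all peaks far from a TSS. Anywhere in the peak, such a pair occurred in 13 of the 128. The 5 closest pairs outside promoters and exons, wherever they lie in their peak, are shown with 25 bases on both sides, plus strand, both motifs in capitals, ordered by the number of bases between the motifs (0, 5, 6, 7 and 10).
SHANK2 intron, chr11:70441846-70441908: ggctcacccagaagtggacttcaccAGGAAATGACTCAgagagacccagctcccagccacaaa
SHANK2 intron, chr11:70397648-70397715: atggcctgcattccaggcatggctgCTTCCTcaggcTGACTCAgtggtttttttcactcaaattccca
ANO1 body, chr11:70013990-70014058: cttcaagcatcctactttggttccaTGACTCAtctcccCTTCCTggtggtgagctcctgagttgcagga
SHANK2 intron, chr11:70549347-70549416: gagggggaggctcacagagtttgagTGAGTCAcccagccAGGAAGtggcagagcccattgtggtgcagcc
CCND1 body, chr11:69462486-69462558: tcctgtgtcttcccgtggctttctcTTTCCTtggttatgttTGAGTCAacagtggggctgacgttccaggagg

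The first of these has the motifs side by side, in a 2180 bp SHANK2 peak. SHANK2 held 3 of these 5 pairs, and the others lay in ANO1 and CCND1. The peak of 1207 bp with the fourth pair was the earliest of the 5 in the list, at position 2288, and the ANO1 and CCND1 peaks stood late, at 23045 and 23196.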

How the data were processed

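ETS1 ChIP-Seq was done by the authors in 3 SCC25 samples (2 with antibody C20, 1 with 501A). Per the labels and methods, reads were aligned to hg19 with Bowtie 1.1.1 and pooled with SAMtools 1.3, peaks were called with MACS2 against a merged input, and IDR was used to keep shared peaks. What was deposited is 1 BED list of 26970 intervals, which holds start and end positions only (no unit of signal, 0-based starts, printed here 1-based). The list is pooled over the samples. Depth per sample is not in this list, so counts carry counting error only, and Wilson and Poisson intervals (95%) cover that error alone.

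A peak was placed by its midpoint. Genes and TSSs came from GENCODE release 44 lifted to GRCh37, whose sequence was also read. Promoters were within 500 bp of a TSS. The 9 mitochondrial peaks were left out of genome values. Enhancers, their rank and their input signal came from the H3K27Ac enhancer list of the study, of which 1999 entries (965 SEs) were used. Input signal was divided by length and by the median of the SEs. Python 3.11.15, numpy 2.4.6, pandas 2.3.3, scipy 1.17.1 and pysam 0.24.0 were used, and the counting of midpoints and motifs was tested on simulated data.

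The members, gene lists and comparisons were chosen with earlier results of these data known, so no chance test was made. All 10 genes are named, with other genes of the interval that had a promoter peak, the leading 3 of each fixed list (and ties), the 5 widest peaks and the 5 densest long genes. The genes named for having no peak, the splits of AP-1 shares, the SEs of at least 100 kb and the printed stretches were chosen after values had been seen. Alternatives varied the flank, overlap, list part, joining of peaks, TSS set and motif window. The upstream sequences of some of the genes are not reported here.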

Additional observations from a re-analysis of the deposited data

How the results depend on the processing

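Of 36 alternatives over 9 results, 26 were counted as the same and 10 as moved. Some of the 26 still shifted. Joining peaks within 1 kb gave 100 peaks in place of 128. All listed enhancers of the interval had a median input of 3.76 times in place of 4.87. The AP-1 share was 26.9% in the first 13485 in place of 19.5%. With only the first 13485 peaks of the list, the interval held 52 peaks, its density was 6.46 times that of the genome, the median width was 1838 bp and the ETS core was in 90.4%. Joining peaks within 1 kb gave a median width of 1660 bp. With canonical TSSs alone, 4 of the 10 genes had a promoter peak in place of 7, and no matching share over all genes is given. The ETS core was in 45.3% of 200 bp windows and 93.0% of whole peaks, and the AP-1 site in 6.25% and 40.6%. Flank, overlap and joining kept the density between 6.72 and 8.02 times. No paired analysis was possible because the deposited list pools the 3 samples and no test compares groups. For the same reason no sample could be left out. Input density and ETS1 binding cannot be told apart from positions alone.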
